A study of Homo sapiens with 6 samples.

Results

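The Notch genes examined were 4 ligands (JAG1, JAG2, DLL1 and DLL4), 4 receptors (NOTCH1, NOTCH2, NOTCH3 and NOTCH4) and 2 target genes (HES1 and HEY1). They were picked by name and each had 1 row, so that all 10 were found among the 18544 genes of the count table. The cells were HMEC-1, an immortalised human line from dermal microvascular endothelium, grown in MCDB131 medium at 5.5 mM glucose. Set7KD cells (n = 3) carried a lentiviral shRNA against SETD7, also written Set7, a lysine methyltransferase that acts on histone H3 and on other proteins. NTC cells (n = 3) carried a non-targeting shRNA by the same route, so that the control cells also carried a construct. The sources used here do not say how many hairpins there were or what separated the triplicates. The p-values below therefore measure the spread between these libraries.

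Notch signalling passes between touching cells. A ligand of the Jagged or Delta-like family on one cell binds a Notch receptor on the next, the receptor is cut by an ADAM protease and then by gamma-secretase, and its freed inner part joins the DNA-binding protein RBPJ to switch on genes of the HES and HEY families. In endothelium DLL4 and NOTCH1 are known for restraining sprouting, and JAG1 for opposing DLL4 in that role.

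Each library held 16385878 to 16953331 gene counts, and levels are given in CPM, the usual counts-per-million scale, with library sizes adjusted by the trimmed mean of M-values (TMM), on which 1 count equals 0.0585 to 0.0618. SETD7 itself stood at 27.8, 43.8 and 26.7 CPM in Set7KD, against 180, 178 and 176 CPM in NTC. Every Set7KD library was thus below every NTC library, with an edgeR adjusted p of 0.000927. The summed level of 10 endothelial markers was 412 to 451 CPM in Set7KD and 516 to 660 CPM in NTC, with 2 of the 10 higher (KDR and TEK), 4 lower (CDH5, TIE1, EGFL7 and ROBO4) and 4 not called by edgeR. That of 7 fibroblast markers was 3170 to 4140 CPM in Set7KD and 1470 to 2020 CPM in NTC. COL1A1 alone averaged 2861 CPM in Set7KD and 1555 CPM in NTC. Of these 7 markers 5 were higher, 0 lower and 2 (LUM and FBLN1) not called by edgeR. Among all genes tested 17.6% were called higher and 18.6% lower. No marker tested stood at 0, the endothelial markers PECAM1 and CLDN5 were not analysed here, and in bulk RNA fewer cells of a type and less RNA per cell cannot be told apart. Whether these shifts play a part in the Notch values was not tested.

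At an adjusted p under 0.05, 3 of the 10 Notch genes rose in Set7KD (JAG1, JAG2 and NOTCH3) and 3 fell (DLL4, NOTCH1 and NOTCH4). Among all 18482 genes tested with edgeR 36.2% were called, 17.6% higher and 18.6% lower, so that being called was common in this comparison. The 2 largest changes lay in the ligands and had opposite signs, JAG1 upward by 2.23-fold and DLL4 downward to 0.238 of its NTC level. In 4 of the 10 genes, or 40%, the CPM values of Set7KD and NTC lay fully apart, which was so in 47.4% of all genes tested. The median log2 fold change of the 10 genes was -0.16, beside -0.01 over all genes.

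**Figure D1:**
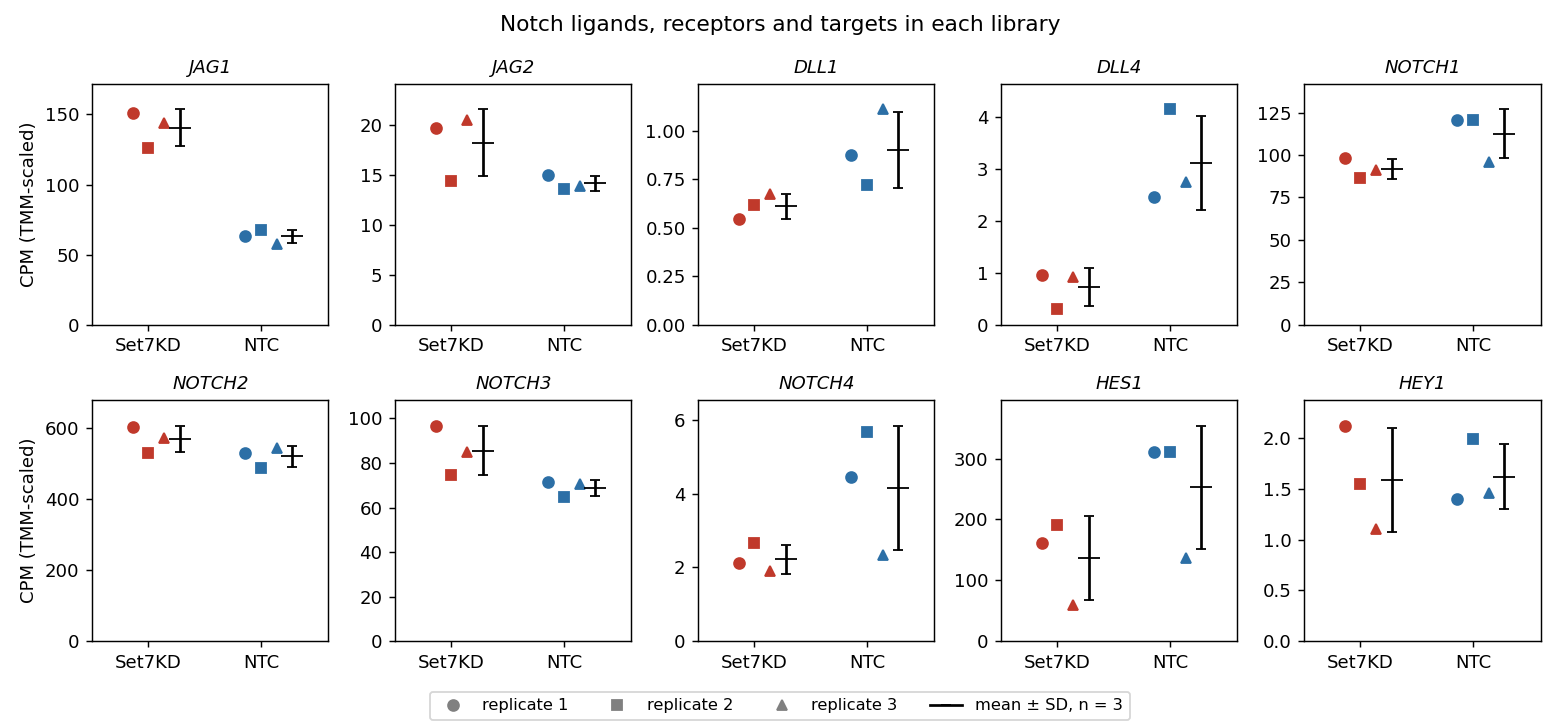
TMM-scaled CPM of each of the 10 Notch genes in the 3 Set7KD libraries (red) and the 3 NTC libraries (blue), on axes that start at 0; marker shapes give the replicate number and black bars the mean ± SD of 3 libraries. JAG1, DLL1, DLL4 and NOTCH3 have no overlap between groups, while HES1 is low in replicate 3 of both groups.

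JAG1, a transmembrane ligand whose loss of a single copy causes Alagille syndrome in humans, had 151, 126 and 144 CPM in Set7KD, against 63.6, 67.4 and 57.9 CPM in NTC. Every Set7KD library was above every NTC library. The log2 fold change was 1.16 (standard error 0.07), and the edgeR adjusted p was 1.38e-07. It lay between 1.10 and 1.23 when single libraries were left out, and the gene was called in all 16 alternative settings.

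JAG2, the second Jagged ligand, had 19.7, 14.4 and 20.5 CPM in Set7KD, against 15.0, 13.5 and 13.9 CPM in NTC. Set7KD replicate 2 lay within the NTC range, so the groups overlapped. The log2 fold change was 0.36 with a standard error of 0.12 (edgeR adjusted p = 0.0302). The call was lost without Set7KD replicate 1 or 3 or without any single NTC library, with an edgeR adjusted p of 0.0551 to 0.12, and a non-coding transcript, RP11-44N21.4, covers 7.33% of the exon bases of JAG2 on the same strand. That transcript had 3.63 ± 0.77 CPM in Set7KD and 2.42 ± 0.64 CPM in NTC (mean ± SD, n = 3 each).

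DLL4, the Delta-like ligand of arterial and tip endothelial cells, was scarce. It had 16, 5 and 15 counts in Set7KD, against 42, 69 and 47 counts in NTC, or 0.97, 0.31 and 0.92 CPM in Set7KD and 2.46, 4.15 and 2.75 CPM in NTC. The groups did not overlap, and the lowest value was that of Set7KD replicate 2. The log2 fold change was -2.07 (standard error 0.33, edgeR adjusted p = 0.000257). DLL4 was called in all 16 alternatives, although without both replicate 2 libraries the log2 fold change was -1.46. DLL1, a related Delta-like ligand, did not pass, at 0.54, 0.62 and 0.67 CPM in Set7KD and 0.88, 0.72 and 1.11 CPM in NTC. Its Set7KD libraries were all below its NTC libraries, but they held just 9 to 11 counts, against 12 to 19 in NTC, and the 95% interval of the log2 fold change ran from -1.23 to 0.11 (edgeR adjusted p = 0.18).

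Dividing by exon length, from GENCODE 29, allows the ligands to be set beside each other. JAG1 was the most abundant ligand in both groups, at 15.1 ± 1.42 CPM per kilobase in Set7KD and 6.77 ± 0.515 in NTC (SD, n = 3 each). It made up 82.5, 84.4 and 81.1% of the summed level per kilobase of the 4 ligands in Set7KD, against 68.6, 69.3 and 66.8% in NTC. JAG2 came next with 15.5 ± 1.38% in Set7KD and 22.4 ± 1.83% in NTC. A share depends on the other ligands too, so it can fall while the level itself is higher. That was so for JAG2, at 2.85 ± 0.52 CPM per kilobase in Set7KD and 2.21 ± 0.122 in NTC. The Delta-like ligands took the remainder: DLL4 had 0.815 ± 0.355% in Set7KD and 6.57 ± 1.62% in NTC, and DLL1 had 1.05 ± 0.174% in Set7KD and 2.86 ± 0.788% in NTC. The order of DLL4 and DLL1 in Set7KD did not differ beyond their spread, whereas in NTC all 4 shares lay apart.

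**Figure D2:**
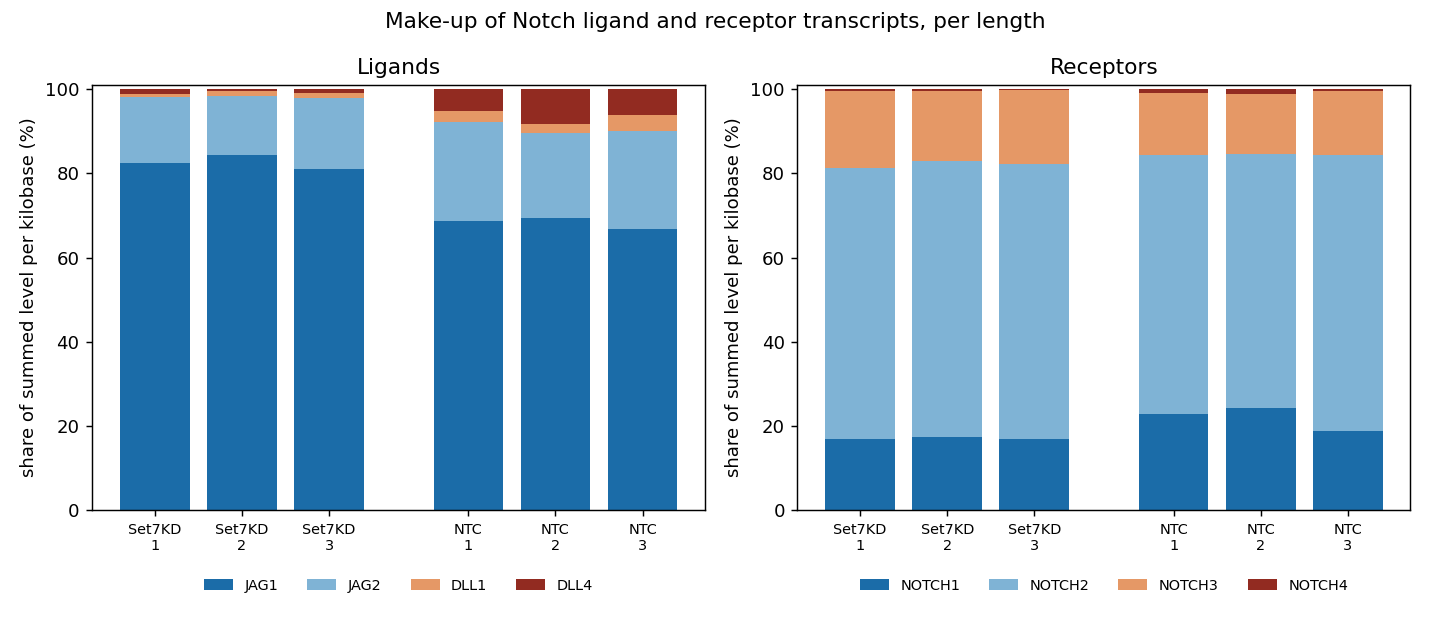
Stacked bars give the share, in percent, of each ligand (left) and each receptor (right) in the summed level per kilobase of its family, with the 3 Set7KD libraries left of the 3 NTC libraries. JAG1 takes 81.1 to 84.4% of ligand transcripts in Set7KD and 66.8 to 69.3% in NTC, and the receptor shares move less.

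Of the 4 receptors 1 rose and 2 fell, or 25 and 50%, beside 17.6 and 18.6% of all genes tested. NOTCH1, the main arterial receptor of endothelium, had 98.2, 86.2 and 91.1 CPM in Set7KD, against 121, 121 and 95.9 CPM in NTC. The lowest NTC value, in replicate 3, lay below the highest Set7KD value. The log2 fold change was -0.29 with a standard error of 0.09 (edgeR adjusted p = 0.023), and the call was lost without Set7KD replicate 2 or 3 or NTC replicate 1 or 2, at an edgeR adjusted p of 0.0612 to 0.101. NOTCH4, a receptor found mainly in endothelium, had 2.12, 2.66 and 1.9 CPM in Set7KD, against 4.44, 5.66 and 2.34 CPM in NTC. NTC replicate 3 was again the lowest of its group and lay inside the Set7KD range. The log2 fold change of NOTCH4 was -0.89 with a standard error of 0.30 (edgeR adjusted p = 0.0413). Its call held without NTC replicate 3 and was lost without any other single library, at an edgeR adjusted p of 0.0645 to 0.139. GPSM3 shares 1.01% of the exon bases of NOTCH4 on the same strand, and it fell too, to 13.7 ± 1.10 CPM in Set7KD, against 19.2 ± 0.76 CPM in NTC.

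NOTCH3, the receptor best known from smooth muscle and pericytes, had 96.6, 74.8 and 85.1 CPM in Set7KD, against 71.3, 64.5 and 70.7 CPM in NTC. Every Set7KD library was above every NTC library. Its log2 fold change was 0.31 with a standard error of 0.08 (edgeR adjusted p = 0.00976), and the call held without any single library and was lost without both replicate 1 libraries, at 0.104. Beside it, the summed level of 7 smooth muscle and pericyte markers was 671 to 930 CPM in Set7KD and 319 to 361 CPM in NTC. TAGLN alone averaged 551 CPM in Set7KD and 96.3 CPM in NTC. Of these 7 markers 2 (CNN1 and TAGLN) rose and 0 fell by edgeR, or 28.6 and 0%, beside 17.6 and 18.6% of all genes tested. ACTA2, MYH11 and CSPG4 were not called (edgeR adjusted p = 0.0999, 0.363 and 0.0537). The pericyte markers PDGFRB and RGS5 were not called, with 59.4 ± 6.4 and 4.20 ± 0.30 CPM in Set7KD and 55.2 ± 1.81 and 4.41 ± 0.30 CPM in NTC. The part of these markers in the NOTCH3 value was not tested.

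NOTCH2, the receptor with the highest level here, had 603, 530 and 572 CPM in Set7KD, against 529, 487 and 542 CPM in NTC. The groups overlapped, and the log2 fold change of 0.13 did not pass (95% interval 0.00 to 0.26 before adjustment, edgeR adjusted p = 0.106). Within each replicate number the Set7KD library was the higher one, by 0.19, 0.12 and 0.08 on the log2 scale. With the replicate number as a block the edgeR adjusted p was 0.0183, and without Set7KD replicate 2 it was 0.0272. Of the 36-base words in NOTCH2 transcripts 25.6% also occur in transcripts of other genes. Of all its words 23.8% occur in NBPF19, 23.3% in NOTCH2NLA, a partial duplicate of NOTCH2, and 3.54% in NBPF14. The table's NOTCH2NL row had 39.2 ± 3.19 CPM in Set7KD and 39.0 ± 5.52 CPM in NTC. Its NBPF14 row had 6.44 ± 0.61 CPM in Set7KD and 6.24 ± 0.39 CPM in NTC. NOTCH2 counts are uncertain to the extent that reads were split between these genes. Per kilobase, NOTCH2 made up 65.1 ± 0.73% of the receptors in Set7KD and 62.4 ± 2.71% in NTC. NOTCH1 followed with 17.0 ± 0.22% in Set7KD and 21.9 ± 2.83% in NTC, and NOTCH3 with 17.5 ± 0.93% in Set7KD and 14.8 ± 0.50% in NTC. The NOTCH1 and NOTCH3 shares in Set7KD did not differ beyond their spread, while in NTC NOTCH1 was above NOTCH3 in every library. NOTCH4 took 0.374 to 0.567% in Set7KD and 0.487 to 1.21% in NTC.

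**Figure D3:**
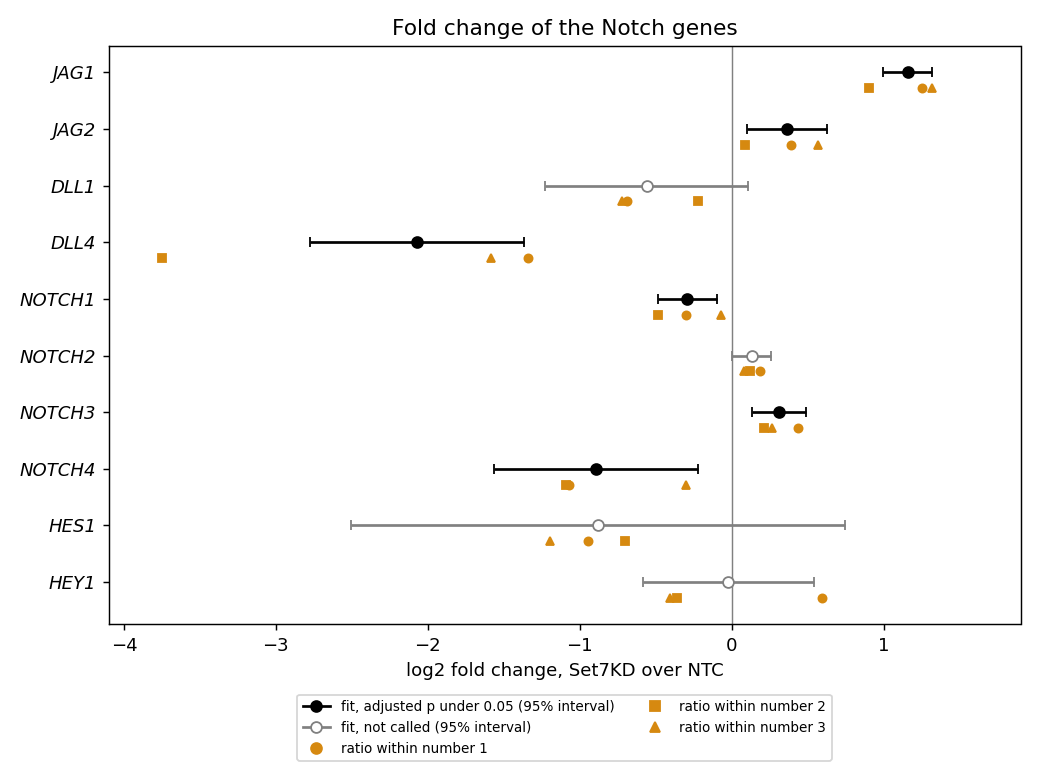
Log2 fold change of Set7KD over NTC for each Notch gene, with circles and bars giving the edgeR estimate and its 95% interval (filled where the adjusted p was under 0.05) and orange markers the ratio between the libraries with the same replicate number. For HES1 the interval runs from -2.51 to 0.74, while the 3 ratios lie between -1.20 and -0.71.

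HES1 encodes a repressor of the basic helix-loop-helix family and is the most widely used readout of Notch activity. The promoter in the RefSeq table (build GRCh38.p14, plus strand) held the word GTGGGAA, which is the preferred sequence of RBPJ, and a further copy of its core TGGGAA. The stretch at chr3:194136059-194136088 begins 89 bases before the annotated start. It is shown because HES1 alone, among the 8 Notch genes with an entry, held either word. HEY1, the other target gene, had no entry. Capitals mark both words:
HES1: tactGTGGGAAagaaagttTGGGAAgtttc
In the 250 bases before the start, read on both strands, GTGGGAA was found in 1 of the 8 Notch genes with an entry and in 5.46% of 27305 promoters of the same length, and TGGGAA, which lies inside the longer word, in 1 of 8 and in 21.1%. The entries of EFNB2 and NRARP, described further on, held neither word. These matches describe sequence and not binding.

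HES1 had 161, 191 and 59.5 CPM in Set7KD, against 311, 311 and 137 CPM in NTC. Replicate 3 was low in both groups, and NTC replicate 3 lay below the 2 higher Set7KD libraries, so the groups overlapped. Taken as 3 libraries against 3, the difference did not pass, with a log2 fold change of -0.88 (standard error 0.60, edgeR adjusted p = 0.332). Between libraries of the same number the log2 ratio was -0.95, -0.71 and -1.20, which was lower in Set7KD in 3 of 3 pairs, as also held in one direction or the other for 64.3% of all genes tested. With the replicate number as a block the log2 fold change was -0.94 and the edgeR adjusted p 9.95e-05, and without both replicate 3 libraries it was 3.25e-06. The result for HES1 thus turned on whether the numbers are taken to pair the libraries. In the unpaired fit it also turned on whether both replicate 3 libraries were kept.

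HEY1, the target gene used most in endothelial work, was scarce, with 35, 25 and 18 counts in Set7KD, against 24, 33 and 25 counts in NTC. In CPM these were 2.12, 1.55 and 1.10 in Set7KD and 1.40, 1.99 and 1.46 in NTC. The NTC range lay inside the Set7KD range, and the 95% interval of the log2 fold change ran from -0.59 to 0.54 (edgeR adjusted p = 0.958). Per kilobase HES1 stood at 66.5 ± 33.4 CPM in Set7KD and 123 ± 48.8 CPM in NTC, far above HEY1 at 0.491 ± 0.157 CPM in Set7KD and 0.501 ± 0.0994 CPM in NTC (SD, n = 3 each).

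The genes whose profile over the 6 libraries was closest to that of HES1, among 13092 with a mean of at least 5 CPM, were LIF, NR4A1 and NFKBIZ, with root mean square differences of 0.17, 0.19 and 0.21 on the log2 scale. LIF encodes a cytokine, NR4A1 a nuclear receptor induced early after stimulation and NFKBIZ a nuclear regulator of NF-kB. NR4A1 had 49.5, 62.1 and 22.5 CPM in Set7KD, against 128, 140 and 53.5 CPM in NTC. Being chosen for their likeness to HES1, all 3 share its low replicate 3 in both groups, which is a description and no separate result. They were called lower with the replicate block (edgeR adjusted p of 5.07e-10 to 0.0124) and not without it (0.172 to 0.206). The choice by likeness also fixed their lower values in Set7KD within each number. These p-values therefore repeat the HES1 pattern and lend it no support. NRARP, a feedback inhibitor that Notch itself induces, showed the same low replicate 3, with 19.7, 21.1 and 11.3 CPM in Set7KD and 23.9, 24.8 and 13.5 CPM in NTC. Its log2 ratios within a number were -0.28, -0.23 and -0.26, and its edgeR adjusted p was 0.638 without and 0.016 with the block.

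**Figure D4:**
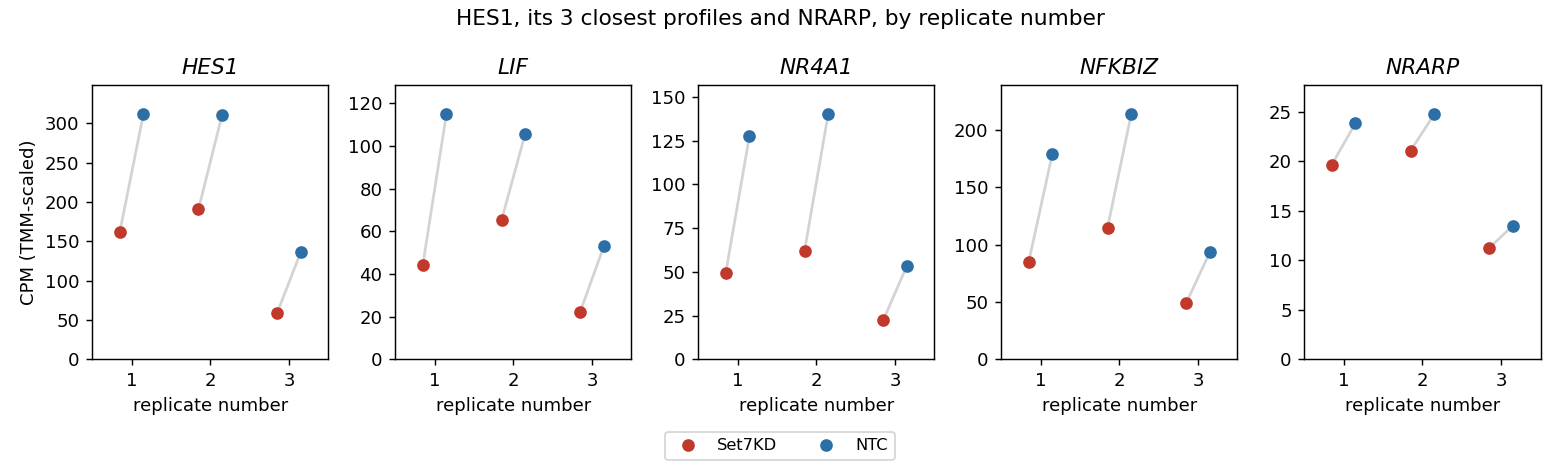
TMM-scaled CPM of HES1, of its 3 closest profiles LIF, NR4A1 and NFKBIZ, and of NRARP, with the Set7KD library (red) left of the NTC library (blue) of the same replicate number and a grey line joining them. Within each number the Set7KD value is the lower one, and both libraries numbered 3 are below the others of their group.

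A list of 10 further target genes tested held 6 of the HES and HEY families beside NRARP, NOTCH2NL, MYC and CCND1. Of these 10 genes 10% rose and 20% fell, beside 17.6 and 18.6% of all genes tested, so the share called was no higher than the background. HEY2, the HEY gene tied to arterial identity, rose to 1.08 ± 0.09 CPM in Set7KD, against 0.35 ± 0.12 CPM in NTC, with 18, 16 and 19 counts in Set7KD and 8, 6 and 4 in NTC. Its log2 fold change of 1.59 (edgeR adjusted p = 0.00194) was called in all 16 alternatives. HES2 had just 16, 19 and 18 counts in Set7KD and 31, 27 and 34 counts in NTC. It fell by 0.74 and HES6 by 0.49 on the log2 scale (edgeR adjusted p = 0.0215 and 0.0195). Mean levels of HES2 and HES6 were under 5 CPM in both groups. Both calls were lost without Set7KD replicate 1 or NTC replicate 1, and that of HES2 also without Set7KD replicate 3 or NTC replicate 3, at an edgeR adjusted p of up to 0.087 for HES2 and 0.094 for HES6. The growth regulator MYC, a Notch target in T cells, had 203 ± 31.7 CPM in Set7KD and 252 ± 23.8 CPM in NTC and was not called, at an edgeR adjusted p of 0.108 without and 6.1e-05 with the block.

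Of 5 enzymes that glycosylate the receptors 2 rose and 2 fell, or 40% each way, beside 17.6 and 18.6% of all genes tested. POFUT1, which adds the O-linked fucose on which ligand binding depends, rose to 146 ± 5.85 CPM in Set7KD, against 114 ± 6.75 CPM in NTC (edgeR adjusted p = 0.000209). The 3 Fringe enzymes, which lengthen that fucose and so shift receptors between Delta-like and Jagged ligands, did not change together. LFNG rose to 5.80 ± 1.17 CPM in Set7KD, against 3.46 ± 0.66 CPM in NTC, a log2 fold change of 0.75 (edgeR adjusted p = 0.00499). MFNG fell to 9.09 ± 0.49 CPM in Set7KD, against 13.7 ± 3.08 CPM in NTC (edgeR adjusted p = 0.00708). RFNG fell to 20.4 ± 1.77 CPM in Set7KD, against 32.0 ± 2.75 CPM in NTC, with a log2 fold change of -0.65 and an edgeR adjusted p of 5.23e-05.

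Of 9 proteases and gamma-secretase subunits 2 rose and 2 fell, or 22.2% each way, which is near the 17.6 and 18.6% of all genes. APH1A, a scaffold of gamma-secretase, fell to 98.2 ± 2.28 CPM in Set7KD, against 124 ± 9.9 CPM in NTC, or by 0.33 on the log2 scale (edgeR adjusted p = 0.000675), and its alternative APH1B rose by 0.18 (edgeR adjusted p = 0.041). ADAM10, the sheddase that makes the first ligand-dependent cut, rose by 0.16 (edgeR adjusted p = 0.0219). The call of APH1B was lost without Set7KD replicate 1 or 2 or NTC replicate 1 or 2 (edgeR adjusted p of up to 0.137), and that of ADAM10 without Set7KD replicate 1 or NTC replicate 1 or 2 (up to 0.114). NCSTN, the substrate receptor of gamma-secretase, was not called, at 146 ± 2.83 CPM in Set7KD and 139 ± 1.69 CPM in NTC.

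Among 7 genes of ligand ubiquitination and endocytosis 2 rose and 2 fell, or 28.6% each way, beside 17.6 and 18.6% of all genes tested. The ubiquitin ligase MIB2 fell to 29.9 ± 1.73 CPM in Set7KD, against 44.0 ± 2.32 CPM in NTC (log2 fold change -0.55, edgeR adjusted p = 3.29e-05), while its relative MIB1 was not called, at 211 ± 9.84 CPM in Set7KD and 196 ± 19.2 CPM in NTC. NEURL1B, another ligase for Delta-like ligands, rose to 36.3 ± 1.35 CPM in Set7KD, against 28.3 ± 1.70 CPM in NTC (edgeR adjusted p = 0.00134). The epsins EPN1 and EPN2, adaptors of ligand endocytosis, had log2 fold changes of 0.25 and -0.25, with edgeR adjusted p of 0.00732 and 0.00298. Of 5 further or non-canonical ligands 0 rose and 3 fell by edgeR, or 0 and 60%, beside 17.6 and 18.6% of all genes tested. DLL3 fell by 0.92, DLK2 by 0.49 and the endothelial secreted protein EGFL7 by 0.49 on the log2 scale. DLL3 had just 10, 11 and 13 counts in Set7KD, against 21, 20 and 26 counts in NTC. The call of DLL3 was lost without Set7KD replicate 1 or NTC replicate 3, at an edgeR adjusted p of up to 0.072. DESeq2 called neither DLL3 nor DLK2. The neuronal ligand DNER was not called, at 29.9 ± 2.15 CPM in Set7KD and 27.8 ± 5.14 CPM in NTC.

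Of 8 genes of the nuclear complex 1 rose and 3 fell, or 12.5 and 37.5%, beside 17.6 and 18.6% of all genes tested. RBPJ, which anchors that complex on DNA, fell to 98.9 ± 3.33 CPM in Set7KD, against 121 ± 6.20 CPM in NTC, a log2 fold change of -0.29 with an edgeR adjusted p of 0.000912. KAT2B, an acetyltransferase that acts as a coactivator, fell to 26.5 ± 1.26 CPM in Set7KD, against 43.9 ± 5 CPM in NTC, with a log2 fold change of -0.73 (edgeR adjusted p = 1.12e-05). SNW1, a factor that joins the complex, rose by 0.18 on the log2 scale, and the acetyltransferase EP300 fell by 0.15, with edgeR adjusted p of 0.022 and 0.0465. EP300 was called in 5 of the 16 alternatives and was lost with other scalings and without Set7KD replicate 2 or 3 or NTC replicate 1 or 2 (edgeR adjusted p of up to 0.178), and SNW1 was lost without Set7KD replicate 2 or NTC replicate 1 or 3 (up to 0.0865). MAML1, the bridging coactivator, was not called, at 82.6 ± 2.47 CPM in Set7KD and 78.7 ± 1.75 CPM in NTC.

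Among 15 corepressors of RBPJ 4 rose and 3 fell, or 26.7 and 20.0%, beside 17.6 and 18.6% of all genes tested. BEND6, which represses together with RBPJ, rose by 0.64 on the log2 scale (edgeR adjusted p = 0.00186), TLE3 of the Groucho family by 0.35 (0.00268), and C12orf52, now called RITA1 and known to export RBPJ from the nucleus, by 0.29 (0.012). CTBP2, CTBP1 and CIR1 had log2 fold changes of -0.27, -0.19 and -0.24, with edgeR adjusted p of 0.00256, 0.0152 and 0.0488. CIR1 was called in 4 of the 16 alternatives and held, among single libraries, without Set7KD replicate 2 alone (edgeR adjusted p of up to 0.235 otherwise), and CTBP1 was lost without Set7KD replicate 3 or NTC replicate 3 (up to 0.056). Of 10 genes for trafficking and turnover of the receptors 1 rose and 3 fell, or 10 and 30%, beside the same 17.6 and 18.6%. The ubiquitin ligase NEDD4 fell to 75.3 ± 4.51 CPM in Set7KD, against 94.2 ± 4.81 CPM in NTC (edgeR adjusted p = 0.000797), DTX3 of the Deltex family by 0.31 and the Notch antagonist NUMB by 0.16 on the log2 scale. NUMBL, the close relative of NUMB, rose by 0.24 (edgeR adjusted p = 0.013). The call of NUMB held, among single libraries, without Set7KD replicate 2 alone (edgeR adjusted p of up to 0.161 otherwise). That of DTX3 was lost without Set7KD replicate 3 or NTC replicate 1 (up to 0.0616), and that of NUMBL without Set7KD replicate 1 (0.0722).

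The last list held arterial, venous and tip cell genes linked to Notch in endothelium. Of the 17 tested 9 rose and 5 fell, or 52.9 and 29.4%, beside 17.6 and 18.6% of all genes tested. The list was chosen with earlier results of these data known, so its share of calls is a description and not a test. KDR also stands among the endothelial markers above. EFNB2, the arterial ephrin that Notch induces in endothelium, had 75.8, 70.3 and 80.8 CPM in Set7KD, against 39.4, 36 and 40.7 CPM in NTC. The groups lay far apart, with a log2 fold change of 0.97 (standard error 0.07, edgeR adjusted p = 1.54e-07). UNC5B, a netrin receptor of tip and arterial cells, rose to 33.6 ± 5.24 CPM in Set7KD, against 18.6 ± 1.52 CPM in NTC (edgeR adjusted p = 5.33e-05).

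Among receptors for VEGF-family ligands FLT1, KDR, NRP1 and NRP2 rose and FLT4 fell. FLT1, a decoy for VEGF-A that Notch is known to raise, rose by 0.84 on the log2 scale (edgeR adjusted p = 0.000222), and the co-receptors NRP1 and NRP2 by 0.60 and 0.36 (1.45e-06 and 0.000406). KDR, the main signalling receptor for VEGF-A, named here after its value was seen, rose by 0.68 (edgeR adjusted p = 0.00582). FLT4, the receptor for VEGF-C, fell to 17.8 ± 0.48 CPM in Set7KD, against 24.8 ± 3.70 CPM in NTC (edgeR adjusted p = 0.00203). ENG, a co-receptor for BMP ligands, rose by 0.30 (edgeR adjusted p = 0.00176). CXCR4, a chemokine receptor of tip cells, was close to the detection limit, with 3, 1 and 6 counts in Set7KD and 17, 32 and 13 counts in NTC. Its log2 fold change of -2.54 (edgeR adjusted p = 0.00188) became -3.24 without Set7KD replicate 3, -1.65 without both replicate 2 libraries and -3.48 without both replicate 3 libraries.

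**Figure D5:**
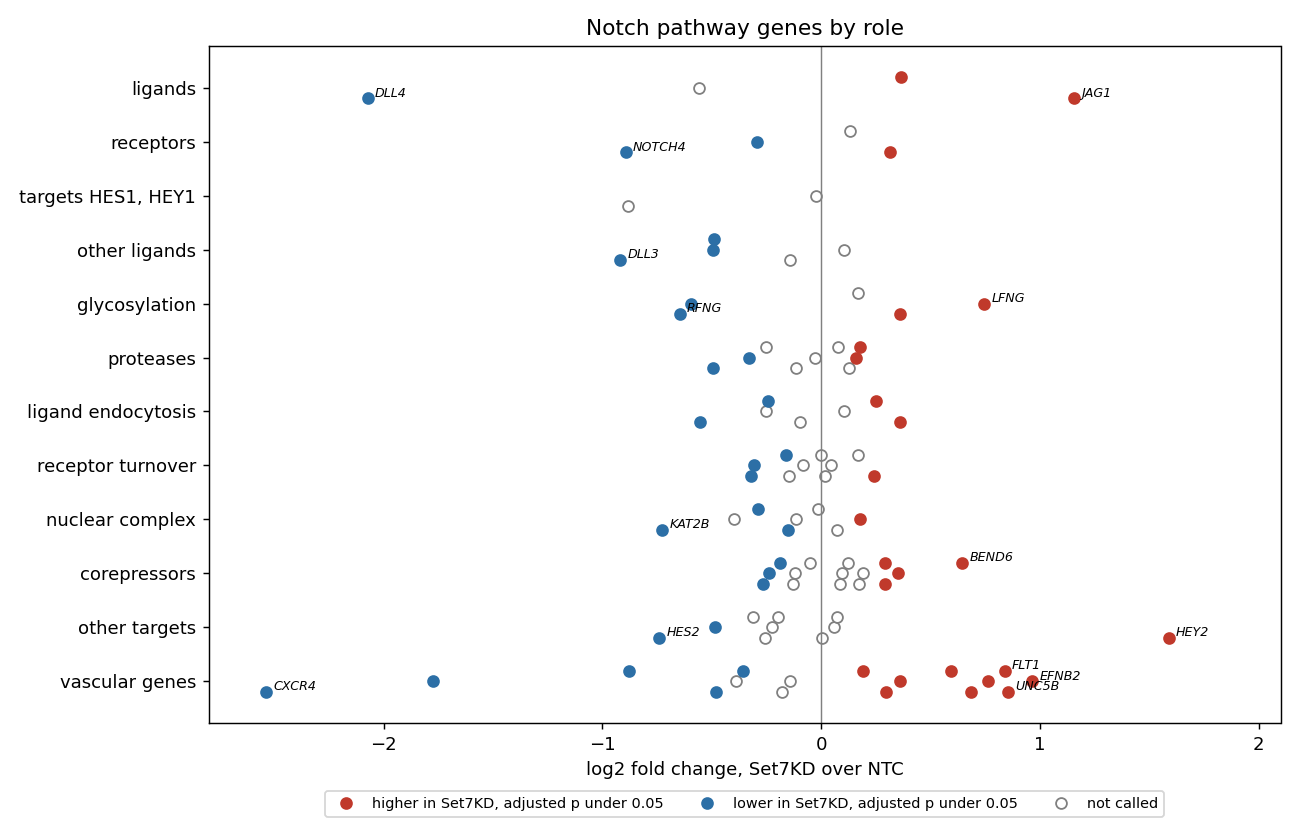
Log2 fold change of Set7KD over NTC for the 10 Notch genes and 86 further pathway genes tested, in rows by role, with filled red points higher and filled blue points lower at an adjusted p under 0.05 and open points not called. Called genes lie on both sides of 0 in all rows except the targets HES1 and HEY1 (0 called) and the other ligands (3 lower, 0 higher).

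Over these 86 genes 22 rose and 25 fell, or 25.6 and 29.1%, beside 17.6 and 18.6% of all genes tested. All role lists were chosen with earlier results of these data known, so these shares are not a test. Their median log2 fold change was -0.07. All 47 were also called with the replicate block, which added 10 more, and 32 of them were called whichever single library was left out.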

How the data were processed

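The values were read counts per gene, whole numbers without normalization, deposited by the authors as 1 table with Ensembl identifiers and symbols for 6 libraries. Per the labels' protocols, poly-A RNA was enriched on Dynabeads from RNeasy extracts before Illumina mRNA-seq library preparation. BWA, bedtools and hg19 appear, with no versions, in the submitters' processing notes. BWA does not splice reads, and the strand used in counting and the treatment of reads with several matches are not given in the sources used here. A row for reads outside genes, 55.6 to 56.1% of the counts of each library, entered neither the library sizes nor the tests.

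The fit used edgeR 4.0.16 under R 4.3.3, with low genes removed by filterByExpr, TMM scaling, robust glmQLFit and glmQLFTest, and group as the single factor, with Benjamini-Hochberg adjustment over 18482 genes and calls at an adjusted p under 0.05. Standard errors are the absolute log2 fold change divided by the square root of F. The fits were tested on simulated counts with the same spread for every gene and no shift by replicate number. That test therefore does not cover shifts that libraries of the same number share. Alternatives were upper-quartile and relative log expression scaling, no filter, the replicate block, DESeq2 1.42.0, limma-voom (limma 3.58.1), a minimum fold of 1.2, and each library left out. Leaving out both libraries of a number was added after the data were seen. Group and replicate number came from the sample titles.

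Libraries with the same number deviated together from their group means (correlations of 0.30, 0.42 and 0.34 over 11151 genes averaging 10 CPM or more), so a fit with the number as a block was set beside the unpaired one. All calls come from the unpaired fit. For the Notch and other pathway genes named, the blocked value is given where it changed a call. Cell type markers are given above from the unpaired fit alone. With the block 2 of the 10 endothelial markers were higher and 5 lower. Of the 7 smooth muscle and pericyte markers 3 were then higher and 0 lower. The labels do not explain the replicate numbers. In the column names NTC and Set7KD libraries alternate, and those with the same replicate number carry consecutive running numbers, whose meaning is not given. This pairing thus rests on the counts and on that order, and no source used here states it. Libraries of 1 group differed beyond sampling noise, with a chi-square per degree of freedom between 2.94 and 9.77.

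The 10 genes and the role lists were chosen with earlier results of these data known. Of 96 pathway genes written, 86 had a row and were tested. The text names the 10 genes, SETD7, at least the 4 and at most 8 genes with the smallest p of each role list, and the 3 profiles closest to HES1 and to HEY1. Some genes that this rule would name are not reported here. Exon lengths, overlaps and shared 36-base words come from GENCODE 29, on a later build than the counts, and promoters from the RefSeq table (GRCh38.p14), in Python 3.11.15. GENCODE lengths take the union of all exons.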

Additional observations from a re-analysis of the deposited data

How the results depend on the processing

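JAG1 and DLL4 were called in all 16 settings, and so were 11 of the 47 other pathway genes called. A minimum fold of 1.2 left 1 Notch gene higher and 1 lower, 8 and 6 of the other pathway genes, and 903 and 1314 of all genes. Without both replicate 1 libraries the counts were 1 and 1, 9 and 7, and 1414 and 1562, and without both replicate 2 libraries 1 Notch gene was lower. The minimum fold tests a larger change, and the other 2 settings hold fewer libraries. Without single libraries 2 to 4 Notch genes were higher and 1 to 3 lower, 17 to 24 and 18 to 26 other pathway genes, and 2423 to 3214 and 2545 to 3303 of all genes, and SETD7 lay between -2.71 and -2.31. With the replicate block, which pairs libraries by number, the counts were 4 and 4, 25 and 32, and 3826 and 4090: NOTCH2 and HES1 joined the calls and no call of the Notch genes was lost. Shares from counts not divided by length were 87.8% for JAG1 in Set7KD and 77.6% in NTC, and 76.0% for NOTCH2 in Set7KD and 73.7% in NTC.

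Some genes near 0 changed sign without being called in either setting. Without single libraries the log2 fold change lay between -0.28 and 0.19 for HEY1, between -0.060 and 0.13 for NOTCH2NL, between -0.030 and 0.23 for DNER, between -0.20 and 0.088 for MASP2, between -0.27 and 0.033 for CTSK and between -0.047 and 0.25 for RP11-247L20.2. Without both replicate 1 libraries it was -0.11 for NOTCH2NL and -0.11 for RP11-247L20.2. Without both replicate 2 libraries it was 0.17 for HEY1 and 0.065 for MASP2, and without both replicate 3 libraries 0.13 for HEY1. The cause of these changes was not tested. Low counts limit DLL1, DLL3, DLL4, HES2, HEY1, HEY2 and CXCR4, each with at most 69 counts in every library.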

Other observations

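The profiles closest to that of HEY1 were CTSK, a lysosomal protease of matrix breakdown, RP11-247L20.2 and MASP2, with root mean square differences of 0.14, 0.15 and 0.16 on the log2 scale over 6 libraries. CTSK had 5.08 ± 1.13 CPM in Set7KD and 5.62 ± 0.64 CPM in NTC, and MASP2 5.57 ± 0.77 CPM in Set7KD and 5.98 ± 1.29 CPM in NTC (SD, n = 3 each). None of the 3 was called by edgeR, at an adjusted p of 0.535 to 0.776.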
